A study of Mus musculus with 77 samples.

Results

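Dcn, Lum, Bgn, Fn1, Fbln1, Sparc, Mgp and Pdgfra are a set of 8 genes of fibroblasts and of the extracellular matrix outside the collagens, taken by gene symbol from count tables of mouse RNA. All 8 symbols matched an Ensembl ID, out of 55273 features in the mRNA and small RNA tables and 55421 in the total RNA tables. Decorin (Dcn), lumican (Lum) and biglycan (Bgn) are small leucine-rich proteoglycans that bind collagen fibrils. Fibronectin (Fn1) and fibulin-1 (Fbln1) are matrix glycoproteins, SPARC is a secreted calcium-binding matricellular protein, matrix Gla protein (Mgp) is an inhibitor of calcification that depends on vitamin K, and Pdgfra is a receptor for platelet-derived growth factors that marks fibroblasts and their precursors. Fibroblasts and related mesenchymal cells are the main source of most of these proteins, while hepatocytes secrete the soluble fibronectin of plasma and adipocytes also make SPARC.

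Male mice of 12 weeks were fed HFD (high-fat) or LFD (low-fat control) for 2 weeks. Their strain label joins FVB.129P2-Cyp3a13tm1Ahs, an altered Cyp3a13 gene, with the deletion Del(5Cyp3a57-Cyp3a59)1Ahs and the transgene Tg(APOE-CYP3A4)A1Ahs. HFD and LFD animals alike carry all of these, so no wild-type mouse was compared. The study's title names iTag labelling, and its labels divide the libraries into pull-downs and inputs without naming the tag, the cells it marks or the pull-down steps. Pull-down and input libraries were made on each diet from liver mRNA, kidney mRNA, liver small RNA, VsWAT small RNA, GAS small RNA and plasma small RNA, and input alone from VsWAT and GAS total RNA. VsWAT and GAS are the names in the labels, taken here as given. This made 77 libraries in 28 groups, 21 groups of 3 libraries and 7 of 2. The labels do not say that each library was a separate mouse, so p-values measure the spread between libraries, which may be partly technical.

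Levels are given as CPM, the count of a gene scaled by the library total of assigned reads. The number of assigned reads in a library was 3033702 to 4942158 for liver mRNA inputs, 7970076 to 19645443 for kidney inputs, 849006 to 2315092 for GAS small RNA inputs and only 221875 to 646964 for plasma pull-downs. CPM is not corrected for gene length, so levels are compared between libraries and never between genes. Tissue markers were highest where the labels put them: 20 hepatocyte markers summed to 89521 to 142371 CPM in liver mRNA inputs against 69.4 to 119 CPM in kidney mRNA inputs, 10 kidney tubule markers to 67585 to 84059 CPM in kidney inputs, 12 adipocyte markers to 13592 to 21872 CPM in VsWAT total RNA, and 12 skeletal muscle markers to 89589 to 146963 CPM in GAS total RNA. Markers of other tissues were also read: adipocyte markers summed to 812 to 952 CPM in kidney inputs and 794 to 2281 CPM in GAS total RNA, and hepatocyte markers to 605 to 1366 CPM in VsWAT total RNA and 1471 to 3423 CPM in VsWAT small RNA inputs. Some libraries stood apart in their kidney, liver, mitochondrial or Gm42418 reads: liver mRNA input LFD 1, kidney inputs HFD 1 and LFD 1, VsWAT total RNA HFD 3, LFD 1 and LFD 3, GAS total RNA HFD 1, and VsWAT small RNA HFD 1, HFD 2 and LFD 1 in input and pull-down. Liver mRNA pull-down LFD 3 held 51.2 CPM of Kap, a kidney tubule gene, against 1.91 to 10.9 CPM in the other liver mRNA pull-downs, and plasma pull-downs held liver reads, given with the plasma results. In 3 pairs of libraries (liver mRNA inputs HFD 1 and 3, liver mRNA inputs LFD 2 and 3, VsWAT small RNA inputs HFD 1 and 2) agreement was close to counting noise (chi-square over its degrees of freedom 1.18, 1.13 and 1.53). They were kept as separate libraries.

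In GRCm38.p6, the RefSeq form of the mm10 build named by the submitters, Dcn (ENSMUSG00000019929) lies at chr10:97479500-97518163 and Lum (ENSMUSG00000036446) at chr10:97565501-97572703. They are neighbours, 47337 bases apart with 0 RefSeq genes between them. Bgn (ENSMUSG00000031375) lies at chrX:73483601-73495936, Fn1 (ENSMUSG00000026193) at chr1:71585473-71653280, Fbln1 (ENSMUSG00000006369) at chr15:85205949-85286294, Sparc (ENSMUSG00000018593) at chr11:55394159-55420080, Mgp (ENSMUSG00000030218) at chr6:136872435-136875823 and Pdgfra (ENSMUSG00000029231) at chr5:75151322-75198206. Pdgfra overlaps the microRNA gene Mir7025, and no other member overlaps a RefSeq gene.

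RefSeq promoter sequences were at hand for 4 of the 8 genes, Bgn, Fbln1, Sparc and Pdgfra, and are shown because all 4 were called lower in the kidney mRNA, VsWAT small RNA and GAS small RNA pull-downs, the kidney call of Fbln1 being the least firm. The Pdgfra window lies inside the gene span given above, before a start site further downstream. Each run is the 250 bases before a start site, 5′ to 3′ on the gene's strand in GRCm38.p6. Capitals mark GGGCGG or its reverse complement CCGCCC, the GC box. Bgn is from chrX:73483351-73483600 (plus strand), Fbln1 from chr15:85205758-85206007 (plus strand, the downstream one of its 2 start sites), Sparc from chr11:55420081-55420330 (minus strand) and Pdgfra from chr5:75152001-75152250 (plus strand).
Bgn: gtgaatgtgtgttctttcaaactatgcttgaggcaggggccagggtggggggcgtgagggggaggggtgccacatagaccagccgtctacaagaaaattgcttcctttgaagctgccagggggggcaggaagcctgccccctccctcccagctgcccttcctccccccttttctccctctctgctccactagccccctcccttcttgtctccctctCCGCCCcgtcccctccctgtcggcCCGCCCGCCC
Fbln1: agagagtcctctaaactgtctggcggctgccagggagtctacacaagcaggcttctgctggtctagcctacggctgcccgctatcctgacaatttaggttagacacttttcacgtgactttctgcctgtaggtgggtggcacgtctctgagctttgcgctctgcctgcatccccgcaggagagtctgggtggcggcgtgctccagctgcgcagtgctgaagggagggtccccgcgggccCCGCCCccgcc
Sparc: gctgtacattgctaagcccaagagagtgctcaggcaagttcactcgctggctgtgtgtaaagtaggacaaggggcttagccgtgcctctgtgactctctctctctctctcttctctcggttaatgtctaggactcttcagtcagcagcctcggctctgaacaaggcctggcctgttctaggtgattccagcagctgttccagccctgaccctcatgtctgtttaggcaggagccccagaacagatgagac
Pdgfra: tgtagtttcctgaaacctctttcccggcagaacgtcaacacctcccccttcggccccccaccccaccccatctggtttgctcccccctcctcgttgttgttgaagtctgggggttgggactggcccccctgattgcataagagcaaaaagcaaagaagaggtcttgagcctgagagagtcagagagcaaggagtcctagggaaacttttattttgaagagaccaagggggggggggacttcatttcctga
The Bgn run holds 3 GC boxes in reverse, the last 2 of them overlapping by 2 letters, and the Fbln1 run holds 1. Sparc and Pdgfra hold none in these windows, and the upstream start site of Fbln1 holds none either. GGGCGG was found, on either strand, in 32.74% of the 32851 windows of the same length in the table. No member window held TATAAA (12.37% of all windows, both strands), CCAAT (33.85%) or TGANTCA, the AP-1 motif (6.75%). GC content was 64.4% in Bgn, 62.4% in this Fbln1 window, 54.0% in Sparc and 54.4% in Pdgfra, beside a median of 52.4% over all windows.

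The 8 genes did not share 1 order of tissues. Dcn was highest in VsWAT small RNA input at 982 ± 298 CPM (SD, n = 6), Sparc there at 1601 ± 374 CPM, Bgn at 215 ± 74.0 CPM, Pdgfra at 106 ± 16.5 CPM, Mgp at 110 ± 42.2 CPM and Fbln1 at 70.5 ± 32.3 CPM, and Lum in VsWAT total RNA at 170 ± 97.5 CPM (n = 6 each). Fn1 instead was highest in liver mRNA input, at 1359 ± 383 CPM (n = 6), and lowest in kidney mRNA pull-down, at 6.64 ± 3.33 CPM (n = 5). Along the 14 sets of libraries ordered by mean level, neighbours overlapped in their libraries in most places. The exceptions for Fn1 were the steps from liver mRNA pull-down to plasma pull-down, from VsWAT small RNA pull-down to GAS small RNA pull-down and from GAS total RNA to kidney mRNA input. For Sparc the only such step was from VsWAT small RNA pull-down, at 1210 ± 322 CPM, to GAS small RNA input, at 251 ± 121 CPM. Dcn, Lum and Fbln1 had no such step. Fbln1 was near 0 in the liver, with 0.533 ± 0.374 CPM in mRNA input and 0.420 ± 0.655 CPM in small RNA input (n = 6 each).

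**Figure D1:**
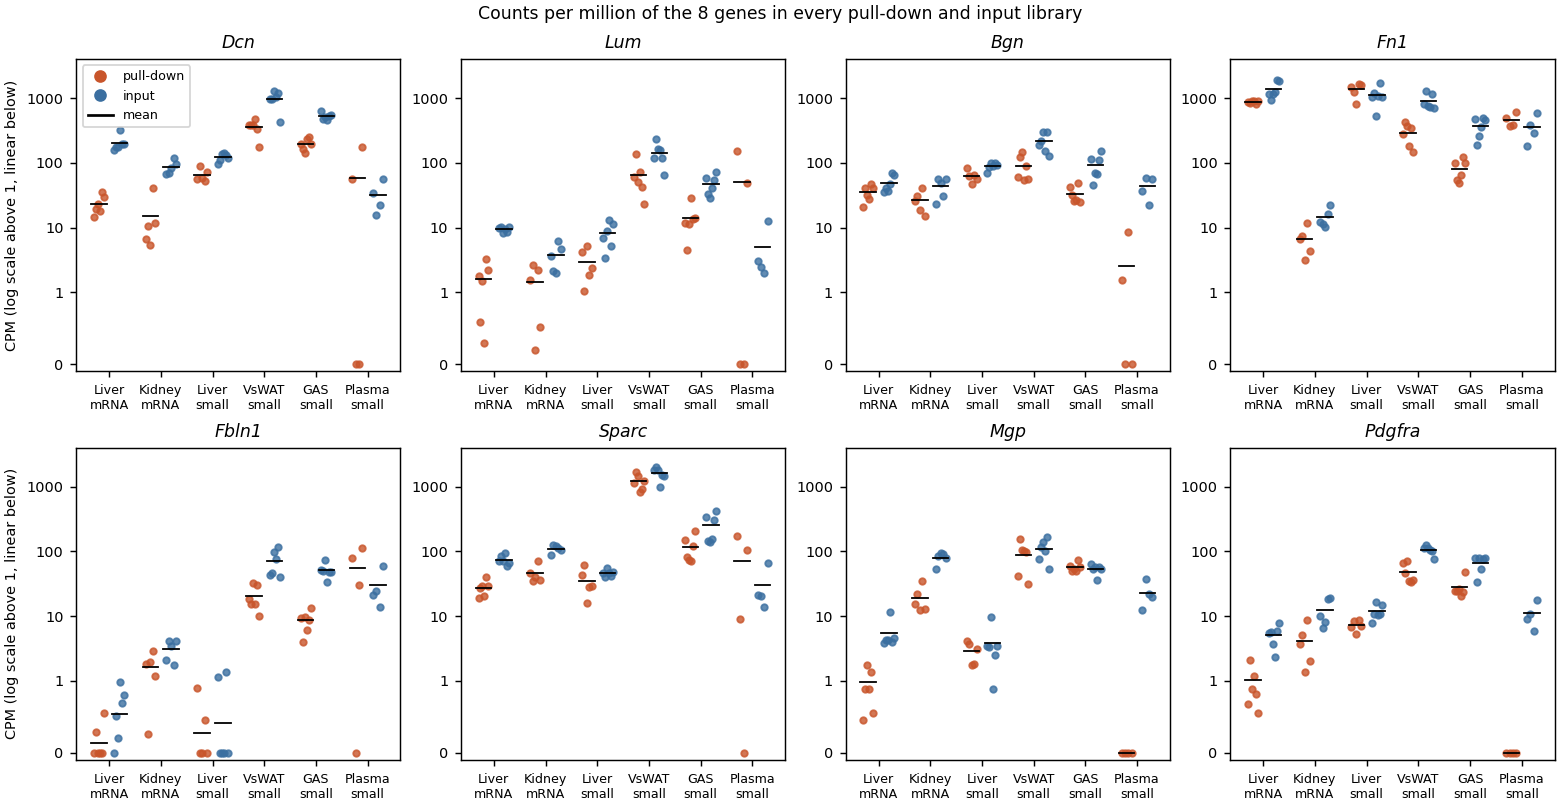
CPM of each of the 8 genes (vertical axis, logarithmic above 1 CPM and linear below) in every pull-down library (orange, left) and input library (blue, right) of liver and kidney mRNA and of liver, VsWAT, GAS and plasma small RNA, HFD and LFD together, with a bar at the mean. Dcn in liver mRNA sits at 14.5 to 35.0 CPM in the pull-downs and at 155 to 319 CPM in the inputs, while Fn1 sits at 817 to 908 CPM in the pull-downs and at 948 to 1872 CPM in the inputs.

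Over the 28 group means of log2(CPM + 1), Dcn was close to Lum (Pearson r = 0.83), Sparc (0.82) and Pdgfra (0.83), whereas Fn1 had an r of 0.24 with Dcn, 0.22 with Lum, 0.04 with Sparc and -0.44 with Mgp. These are descriptions over groups that share tissues. Among 13409 genes with enough reads, the 3 most like Fn1 were C3 (0.95), the complement component made by hepatocytes, Lrp1 (0.95), an endocytic receptor, and C4b (0.90), another complement gene. Those most like Sparc were Retn (0.96), which encodes the adipocyte hormone resistin, and the amino acid transporter genes Slc7a10 (0.96) and Slc36a2 (0.96). Pdgfra was most like Ddr2 (0.96), a collagen receptor gene, Mxra8 (0.95) and Prickle2 (0.95), and Lum most like Itpripl2 (0.92) and the collagens Col6a1 (0.91) and Col5a2 (0.89). Dcn was most like Pcolce2 (0.90), an enhancer of procollagen processing, Ifi207 (0.89) and the oncostatin M receptor gene Osmr (0.87). Mgp was most like smooth muscle actin Acta2 (0.95), Flot1 (0.94) and Cyth3 (0.94), Fbln1 most like Spock2 (0.95), Adgrd1 (0.94) and Aebp1 (0.93), and Bgn most like H2-Ab1 (0.94), an MHC class II gene, Nrp2 (0.93) and C1qtnf1 (0.91).

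The first comparison sets pulled-down RNA against the input of the same tissue. In liver mRNA, all 7 members with enough reads fell in pull-down, from 10.6-fold lower for Dcn to 1.61-fold lower for Bgn. Of all genes tested there, 73.6% were called in either direction and 35.9% called lower, so a call by itself is common in this set. The median of the members was -2.56 on the log2 scale, beside 0.02 for all genes. Fbln1 was below the filter on low counts, with 0.141 ± 0.233 CPM in pull-down and 0.533 ± 0.374 CPM in input (SD, n = 6 each). In all pull-down results, fewer cells of a type and less RNA per cell cannot be told apart. The tag, the cells it marks and the pull-down steps are not named, so a lower level may reflect neither.

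The share of mitochondrial mRNA moved with the pull-down. It was 12.2% to 16.6% in pull-down and 6.33% to 9.13% in input of liver mRNA, and 6.70% to 13.6% in pull-down and 2.81% to 4.64% in input of liver small RNA. It was 9.14% to 20.1% in pull-down and 1.60% to 2.18% in input of VsWAT small RNA, and 24.4% to 31.8% in pull-down and 2.00% to 3.13% in input of GAS small RNA, without overlap in these 4 sets. In kidney mRNA it overlapped, at 16.9% to 20.3% in pull-down and 11.6% to 17.6% in input. In plasma small RNA it was 1.75% to 4.78% in pull-down and 0.009% to 0.025% in input, again without overlap. Its part in the members' changes was not tested.

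Among the proteoglycans of liver mRNA, Dcn ran from 14.5 to 35.0 CPM in pull-down (median 21.0, n = 6) and from 155 to 319 CPM in input (median 185, n = 6), a log2 fold change of -3.41 ± 0.24 (SE, adjusted p = 1.69e-07). Lum ran from 0.294 to 3.28 CPM in pull-down (median 1.64) and from 8.30 to 10.2 CPM in input (median 9.77), at -2.77 ± 0.33 (adjusted p = 5.94e-06). No pull-down library of Dcn or Lum reached the lowest input. Bgn ran from 20.8 to 47.8 CPM in pull-down (median 36.8) and from 35.2 to 69.4 CPM in input (median 43.9), at -0.69 ± 0.17 (adjusted p = 0.00304). Its libraries overlapped between pull-down and input.

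Fn1 fell least but for Bgn in liver mRNA, to 817 to 908 CPM in pull-down (median 887, n = 6) against 948 to 1872 CPM in input (median 1197, n = 6), at -0.85 ± 0.08 (SE, adjusted p = 3.92e-07). Sparc ran from 19.2 to 40.2 CPM in pull-down and from 59.3 to 95.3 CPM in input, at -1.71 ± 0.22 (adjusted p = 1.50e-05). Mgp ran from 0.452 to 1.76 CPM in pull-down and from 3.82 to 11.5 CPM in input, at -2.66 ± 0.44 (adjusted p = 0.000111). Pdgfra ran from 0.551 to 2.07 CPM in pull-down and from 2.31 to 7.75 CPM in input, at -2.56 ± 0.35 (adjusted p = 2.28e-05). For Fn1, Sparc, Mgp and Pdgfra every pull-down library lay below every input library. The share of all genes without overlap was not counted in any comparison, so separation is not read as particular to the members. All 7 calls held in DESeq2, under total-count scaling and without any single library.

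**Figure D2:**
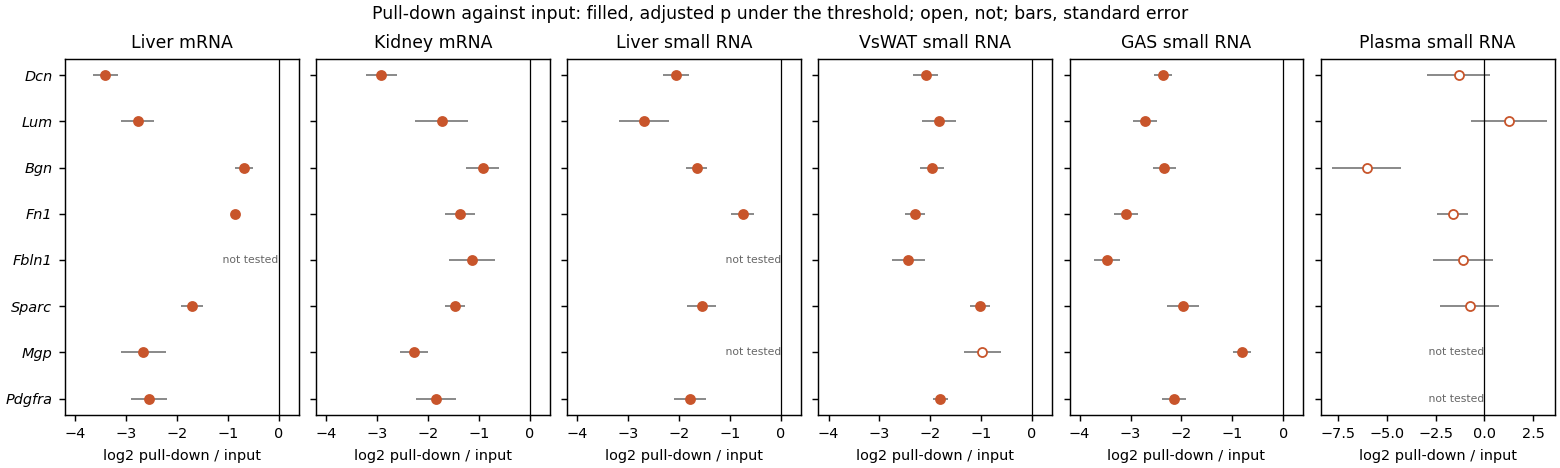
Log2 fold change of pull-down over input from edgeR for each of the 8 genes (rows) in the 6 sets of libraries (panels, with a wider horizontal axis for plasma), with standard errors as bars; filled points passed an adjusted p of 0.05 and open points did not. In liver mRNA Dcn stands at -3.41 and Fn1 at -0.85, while in GAS small RNA Fn1 stands at -3.08 and Dcn at -2.37.

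Kidney mRNA gave 8 of 8 members lower in pull-down, where 52.8% of all genes were called and 26.3% called lower, with a median of -1.60 beside 0.01 for all genes. Dcn held 6.56, 10.4 and 5.46 CPM in the HFD pull-downs and 40.1 and 11.8 CPM in the LFD pull-downs, against 67.7, 69.6 and 82.0 CPM in the HFD inputs and 119 and 95.3 CPM in the LFD inputs. Every pull-down library was below every input library, and the fold change was -2.92 ± 0.31 (SE, adjusted p = 2.38e-05). Mgp, which is more abundant in kidney than in liver mRNA, ran from 12.3 to 34.3 CPM in pull-down and from 52.8 to 95.1 CPM in input (n = 5 each), at -2.28 ± 0.28 (adjusted p = 5.06e-05). Sparc likewise did not overlap, with 34.5 to 72.1 CPM in pull-down and 87.8 to 125 CPM in input, at -1.47 ± 0.20 (adjusted p = 8.59e-05).

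Other kidney members overlapped between pull-down and input in CPM. Pdgfra was at -1.84 ± 0.39 (adjusted p = 0.00154), Lum at -1.73 ± 0.52 (adjusted p = 0.0132) and Fn1 at -1.38 ± 0.30 (adjusted p = 0.00195). Fn1 is a low gene in kidney, with 6.64 ± 3.33 CPM in pull-down and 14.5 ± 5.08 CPM in input (SD, n = 5 each). Fbln1 at -1.14 ± 0.45 (adjusted p = 0.0454) and Bgn at -0.93 ± 0.31 (adjusted p = 0.0255) were the least firm calls, lost in 8 and 5 of 16 other settings. Without LFD pull-down 2, 5 of the 8 calls were left, and Lum then missed at an adjusted p of 0.0631, Bgn at 0.113 and Fbln1 at 0.164.

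In liver small RNA 6 of 6 tested members were lower in pull-down, where 55.2% of genes were called and 28.2% called lower, with a median of -1.72 beside 0.10 for all genes. Mgp and Fbln1 were below the filter. Scaling mattered here, since with total counts in place of TMM the median of all genes moved to 1.23 and that of the members to -0.56, and then 2 of the 6, Dcn and Lum, were called. Dcn ran from 52.0 to 88.3 CPM in pull-down (n = 5) and from 97.5 to 141 CPM in input (n = 6) without overlap, at -2.06 ± 0.25 (SE, adjusted p = 4.06e-06). Lum was at -2.69 ± 0.48 (adjusted p = 0.000176), Pdgfra at -1.79 ± 0.31 (adjusted p = 0.000109), Bgn at -1.66 ± 0.20 (adjusted p = 4.03e-06) and Sparc at -1.56 ± 0.29 (adjusted p = 0.000426). Fn1 was at -0.75 ± 0.23 (adjusted p = 0.00981) with TMM and at 0.36 with total counts, which is the opposite sign, and it missed without pull-down LFD 1 or LFD 3. In CPM Fn1 held 1358 ± 339 in pull-down and 1096 ± 369 in input (SD, n = 5 and n = 6).

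VsWAT small RNA gave 7 of 8 members lower in pull-down, with 43.9% of genes called, 22.9% called lower, and a median of -1.90 beside 0.01 for all genes. Fn1 ran from 147 to 427 CPM in pull-down (median 314, n = 6) and from 706 to 1273 CPM in input (median 779, n = 6), at -2.30 ± 0.20 (SE, adjusted p = 1.56e-07). Fbln1 ran from 10.1 to 32.0 CPM in pull-down and from 40.6 to 117 CPM in input, at -2.43 ± 0.33 (adjusted p = 8.63e-05). Pdgfra ran from 34.0 to 72.2 CPM in pull-down and from 77.2 to 126 CPM in input, at -1.80 ± 0.15 (adjusted p = 8.96e-08). The libraries of Fn1, Fbln1 and Pdgfra did not overlap between pull-down and input.

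The VsWAT proteoglycans overlapped in CPM but passed, with Dcn at -2.09 ± 0.24 (adjusted p = 3.37e-06), Bgn at -1.97 ± 0.23 (adjusted p = 9.02e-06) and Lum at -1.83 ± 0.34 (adjusted p = 0.00123). Sparc was at -1.03 ± 0.20 (adjusted p = 0.000506), and its call was lost with total counts and without the libraries that stand apart. Mgp, at -0.97 ± 0.37, did not pass in edgeR (adjusted p = 0.0554), though it did in DESeq2 (adjusted p = 0.00922) and without input HFD 1, input LFD 3 or pull-down HFD 2 (adjusted p = 0.0488, 0.0401 and 0.0274). With total counts the median of all genes was 0.64 and that of the members -1.26.

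GAS small RNA gave 8 of 8 members lower in pull-down, with 54.4% of genes called, 26.5% called lower, and a median of -2.35 beside 0.06 for all genes. Fbln1 ran from 4.04 to 13.4 CPM in pull-down (median 9.14, n = 6) and from 33.3 to 74.2 CPM in input (median 48.9, n = 6), at -3.46 ± 0.25 (SE, adjusted p = 5.02e-10). Fn1 ran from 47.9 to 123 CPM in pull-down and from 192 to 484 CPM in input, at -3.08 ± 0.23 (adjusted p = 9.04e-10). Dcn ran from 140 to 249 CPM in pull-down and from 459 to 640 CPM in input, at -2.37 ± 0.18 (adjusted p = 8.00e-10). These genes did not overlap between pull-down and input.

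Lum at -2.72 ± 0.24, Bgn at -2.33 ± 0.22, Pdgfra at -2.14 ± 0.23 and Sparc at -1.97 ± 0.31 passed in GAS with overlapping CPM (adjusted p = 6.81e-09, 2.62e-08, 2.72e-07 and 7.19e-05). Mgp fell least, at -0.81 ± 0.17 (adjusted p = 0.000528), while its CPM was 57.4 ± 8.88 in pull-down and 53.8 ± 9.22 in input (SD, n = 6 each). With total counts Mgp was at 0.10, the opposite sign, and was the only GAS member not called; the median of all genes was then 0.97 and that of the members -1.45. Replicate numbers paired the GAS libraries, and 8 of 8 members were also called with the replicate as a block.

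Plasma small RNA, filtered before extraction, was the set with the fewest reads, and 0 of 6 tested members were called by edgeR where 0.951% of genes were. Of them 1 had an unadjusted p under 0.05 and DESeq2 called 1, both times Bgn. Bgn held 3 counts in all in 4 pull-down libraries and 102 in 4 inputs, at 2.55 ± 4.13 CPM in pull-down and 43.1 ± 17.1 CPM in input (SD, n = 4 each), with an adjusted p of 0.1005 in edgeR and 0.00519 in DESeq2. Without HFD pull-down 1, HFD pull-down 2 or LFD pull-down 1, edgeR called Bgn too, with adjusted p of 0.0227, 0.0204 and 0.0352, and Mgp, which then passed the filter, in the first and second of these runs (adjusted p = 0.0488 and 0.0208).

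Pdgfra and Mgp had 0 counts in all 4 plasma pull-downs, against 25 and 57 counts in the 4 inputs, and were below the filter. With a floor of 3 counts over the 4 pull-downs (2.10 CPM), the pooled level of Pdgfra was at least 5.39-fold lower than in the inputs and that of Mgp at least 12.3-fold lower, limits that cover counting error only. Fn1 was read in every plasma library, with 496 and 368 CPM in the HFD pull-downs, 380 and 617 CPM in the LFD pull-downs, 183 and 390 CPM in the HFD inputs and 293 and 585 CPM in the LFD inputs. Dcn was uneven, with 55.6 and 0.0 CPM in the HFD pull-downs and 0.0 and 176 CPM in the LFD pull-downs, against 33.6 and 15.7 CPM in the HFD inputs and 21.9 and 55.8 CPM in the LFD inputs. Lum, like Dcn, was read in 2 of the 4 pull-downs. At this depth neither gene differed detectably between pull-down and input. Plasma pull-downs also differed in reads of tissue markers: 20 hepatocyte markers summed to 522 to 20709 CPM in the pull-downs and 199 to 541 CPM in the inputs. Skeletal muscle markers summed to 2327 to 5823 CPM in the pull-downs and 599 to 2260 CPM in the inputs, without overlap. Adipocyte markers did not overlap either, at 441 to 886 CPM in the pull-downs and 82.1 to 358 CPM in the inputs. Alb stood at 6280 CPM in HFD pull-down 1, 1767 CPM in LFD pull-down 2, 346 CPM in LFD pull-down 1 and 18.1 CPM in HFD pull-down 2, against 1.80 to 55.0 CPM in the inputs, and Kap at 224 CPM in HFD pull-down 1 and 60.5 CPM in LFD pull-down 1. The part of these reads in the plasma values was not tested.

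The ratio of Fn1 to Dcn within a library needs no scaling between libraries. In liver mRNA its log2 averaged 5.29 ± 0.50 in pull-down and 2.74 ± 0.49 in input (SD, n = 6 each), a difference of 2.55 that is the smallest-p outcome the design allows (exact permutation test, 2-sided, p = 0.00216, adjusted p over the 6 sets = 0.0130). In kidney mRNA it averaged -0.90 ± 0.72 in pull-down and -2.61 ± 0.36 in input (n = 5 each; exact adjusted p = 0.0159). In liver small RNA it averaged 4.35 ± 0.53 in pull-down and 3.08 ± 0.61 in input (n = 5 and n = 6; exact adjusted p = 0.0130). In these sets no pull-down library overlapped an input library, and Dcn was lower relative to Fn1 in pull-down than in input.

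The ratio went the other way in GAS small RNA, at -1.32 ± 0.38 in pull-down and -0.58 ± 0.46 in input (n = 6 each; exact adjusted p = 0.0227), with overlapping libraries. Without GAS input LFD 2 that difference was -0.65 and missed (exact adjusted p = 0.0520). In VsWAT small RNA the ratio was -0.32 ± 0.56 in pull-down and -0.09 ± 0.55 in input (n = 6 each; exact adjusted p = 0.496), and in plasma 5.09 ± 3.08 in pull-down and 3.51 ± 0.90 in input (n = 4 each; exact adjusted p = 0.480). Differences between the sets in this ratio were not tested.

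**Figure D3:**
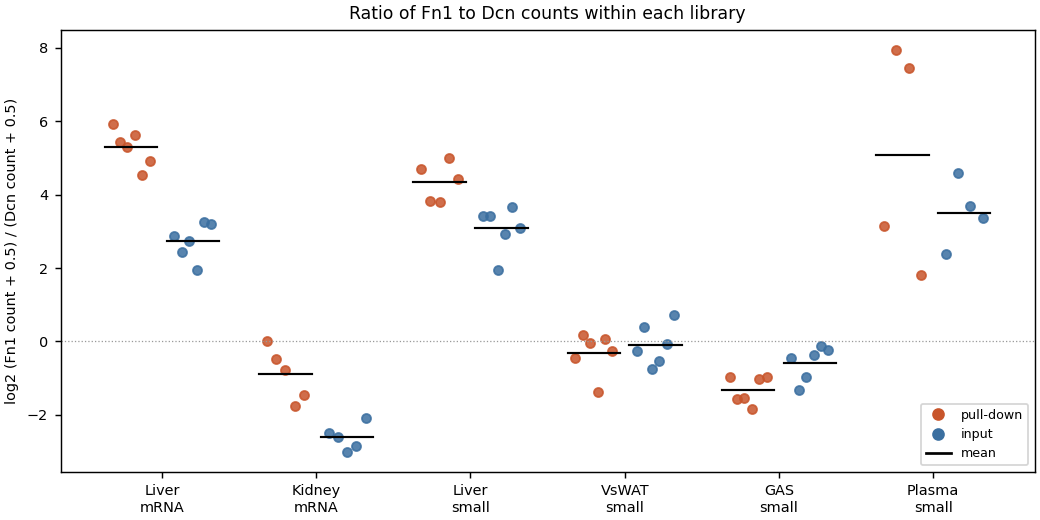
Log2 ratio of Fn1 to Dcn counts (0.5 added to each count, vertical axis) in every pull-down library (orange, left) and input library (blue, right) of the 6 sets, with a bar at the mean. Liver mRNA pull-downs lie between 4.54 and 5.92 and its inputs between 1.96 and 3.26; GAS pull-downs lie between -1.85 and -0.97 and its inputs between -1.33 and -0.14.

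Tested directly in a model of both tissues, the pull-down change of no member differed between liver and kidney mRNA (0 of 8 called by edgeR, 12.6% of genes called, 0 of 8 with an unadjusted p under 0.05, 0 by DESeq2). The estimate of liver minus kidney was -0.64 ± 0.40 for Dcn and 0.38 ± 0.27 for Fn1 (SE). Fn1 was called without the libraries that stand apart (0.68, adjusted p = 0.0480) and without kidney pull-down LFD 1 (0.79, adjusted p = 0.0347). Between VsWAT and GAS small RNA 0 of 8 were called by edgeR where 12.2% of genes were, 3 of 8 had an unadjusted p under 0.05 and 0 passed in DESeq2. VsWAT minus GAS was 1.00 ± 0.43 for Fbln1 (adjusted p = 0.135), 0.91 ± 0.36 for Sparc (adjusted p = 0.101) and 0.76 ± 0.30 for Fn1 (adjusted p = 0.107). Without GAS pull-down LFD 3 Sparc was called (adjusted p = 0.0265), and without VsWAT input HFD 3 Fbln1 was (adjusted p = 0.0325). Missing the threshold does not show that the tissues were alike.

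Related matrix genes are given by role, beside the shares of all genes tested that were called lower in pull-down, which were 35.9% in liver mRNA, 26.3% in kidney mRNA, 28.2% in liver small RNA, 22.9% in VsWAT small RNA and 26.5% in GAS small RNA. Of the other small leucine-rich proteoglycans, 3 of 4 tested were lower in liver mRNA pull-down (Prelp -1.95, Omd -1.03 and Ogn -2.13), 4 of 7 in kidney mRNA, 5 of 6 in VsWAT small RNA and 7 of 7 in GAS small RNA, with 0 called higher. Of the elastic fibre genes and other fibulins, 4 of 4 were lower in liver mRNA (Ltbp4 -2.28, Efemp1 -2.14 and Fbln5 -2.80 among them), 9 of 16 in kidney mRNA, 15 of 17 in VsWAT small RNA and 15 of 15 in GAS small RNA, with 0 called higher. In liver small RNA 1 of 1 and 3 of 3 of these lists were lower, and in plasma 0 of 1 and 0 of 5 were called. With total counts 1 VsWAT gene of each list was called higher, and the counts lower fell to 2 of 6 and 12 of 17 in VsWAT and to 5 of 7 and 13 of 15 in GAS.

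Matricellular genes, the wider family of Sparc, were mixed. In liver mRNA 6 of 8 were lower and 1 higher, in kidney mRNA 8 of 14 lower and 2 higher, in liver small RNA 2 of 4 lower and 1 higher, in VsWAT small RNA 10 of 15 lower and 3 higher, and in GAS small RNA 14 of 15 lower and 1 higher. Ccn1, a growth-regulated gene of rapid turnover, was the one called higher in liver mRNA (0.91), liver small RNA (1.24) and GAS (2.03), and it was higher in kidney mRNA as well (1.06). Spp1, the osteopontin gene, was the matricellular gene with the smallest p in liver mRNA and in kidney mRNA, at -2.59 and -1.90. Noncollagen basement membrane genes were lower in 6 of 7 tested in liver mRNA, 3 of 10 in kidney mRNA, 6 of 6 in liver small RNA, 8 of 10 in VsWAT small RNA and 10 of 10 in GAS small RNA, with 1 higher in kidney (Lama5) and 1 in VsWAT (Lama4).

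Of 5 PDGF ligand and receptor genes listed beside Pdgfra, only Pdgfrb and Pdgfc are given here, named after their values were seen. No division of receptors from ligands is read from them. Pdgfrb, the other PDGF receptor, was lower in pull-down like Pdgfra, at -2.58 in liver mRNA, -1.71 in kidney mRNA, -1.90 in VsWAT small RNA and -2.49 in GAS small RNA. The ligand gene Pdgfc was called higher in liver mRNA (1.12), kidney mRNA (0.55) and VsWAT small RNA (0.63) and lower in GAS (-1.50). Of the fibronectin-binding integrin subunits 3 of 6 were lower in liver mRNA (Itgb1 -0.84, Itga8 -2.74 and Itgb3 -1.05), 3 of 6 in kidney mRNA, 4 of 6 in liver small RNA, 4 of 5 in VsWAT and 2 of 5 in GAS, with 0 called higher under TMM. With total counts integrin subunits were called higher, 2 in liver mRNA, 1 in kidney mRNA, 2 in liver small RNA and 3 in GAS. Of the vitamin K cycle genes that activate matrix Gla protein, Vkorc1 was lower in liver mRNA (-1.55), kidney mRNA (-2.39) and liver small RNA (-0.83), and Ggcx, the carboxylase, in liver mRNA (-0.29), liver small RNA (-1.38) and VsWAT small RNA (-0.72). In CPM the 3 listed genes, Vkorc1l1 included, summed to more in pull-down in VsWAT (60.7 to 96.4 against 30.1 to 60.4 in input). The same held in GAS (23.8 to 40.2 against 11.4 to 21.5). Their sum was less in pull-down in liver mRNA (121 to 158 against 184 to 246). Kidney mRNA went that way too (60.7 to 69.3 against 72.5 to 111). In liver small RNA the sums overlapped (84.3 to 118 against 68.0 to 124).

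Counts of cell type markers called lower are read against the same shares of all genes. Fibroblast markers outside the members were lower in 10 of 10 tested in liver mRNA, summing to 260 to 293 CPM in pull-down and 727 to 929 CPM in input, in 10 of 16 in kidney mRNA (199 to 501 CPM in pull-down, 880 to 1122 CPM in input), in 7 of 8 in liver small RNA (249 to 390 CPM in pull-down, 318 to 451 CPM in input), in 15 of 16 in VsWAT (2037 to 4260 CPM in pull-down, 3056 to 4642 CPM in input) and in 16 of 16 in GAS (568 to 1036 CPM in pull-down, 1450 to 2576 CPM in input). Collagens were lower in 8 of 10, 7 of 14, 7 of 7, 11 of 14 and 14 of 14 in the same order of sets. Endothelial markers were lower in 11 of 12 in liver mRNA (76.1 to 111 CPM in pull-down, 262 to 396 CPM in input), 9 of 12 in kidney mRNA, 11 of 12 in liver small RNA, 12 of 12 in VsWAT and 9 of 9 in GAS. Macrophage and leukocyte markers were lower in 12 of 12, 9 of 12, 12 of 12, 11 of 12 and 10 of 11, and hepatic stellate cell markers in liver mRNA in 7 of 7 (36.4 to 58.2 CPM in pull-down, 152 to 190 CPM in input). Smooth muscle and pericyte markers, as sums, ran from 17.6 to 31.7 CPM in liver mRNA pull-down and 59.5 to 85.6 CPM in input. Liver small RNA (58.9 to 122, 58.0 to 80.5) and kidney mRNA (45.1 to 96.4, 70.9 to 124) overlapped between pull-down, given first, and input. So did VsWAT (367 to 541, 371 to 450) and GAS (127 to 186, 92.4 to 212).

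Markers of the main cell of each tissue did not all go the other way. In liver mRNA hepatocyte markers were lower in 17 of 20 and higher in 2, with a median of -1.54, summing to 75698 to 95273 CPM in pull-down and 89521 to 142371 CPM in input. In kidney mRNA tubule markers were lower in 8 of 10, summing to 17177 to 34841 CPM in pull-down and 67585 to 84059 CPM in input. In VsWAT adipocyte markers were higher in 7 of 12 and lower in 3, summing to 23550 to 32862 CPM in pull-down and 11555 to 13857 CPM in input. In GAS skeletal muscle markers were lower in 6 of 12 under TMM and higher in 7 of 12 with total counts, summing to 47998 to 76601 CPM in pull-down and 35919 to 62625 CPM in input. No defining marker of fibroblasts was at 0 in these sets except Islr in liver small RNA pull-down. The part of these cell types in the members' changes was not tested.

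Between tissues, VsWAT total RNA held more of 7 of the 8 members than GAS total RNA, where 66.6% of genes were called and 30.1% called higher, with a median of 1.64 beside -0.06 for all genes. Sparc differed most, at 996 to 2300 CPM in VsWAT (median 1531, n = 6) against 56.6 to 164 CPM in GAS (median 98.5, n = 6), a log2 fold change of 3.26 ± 0.21 (SE, adjusted p = 1.05e-08). Fn1 ran from 182 to 460 CPM in VsWAT and from 26.7 to 81.9 CPM in GAS, at 1.91 ± 0.28 (adjusted p = 8.16e-05). Bgn was at 1.69 ± 0.25 (adjusted p = 7.84e-05), Fbln1 at 1.68 ± 0.22 (adjusted p = 1.26e-05), Lum at 1.60 ± 0.24 (adjusted p = 6.87e-05), Dcn at 0.76 ± 0.19 (adjusted p = 0.00294) and Pdgfra at 0.74 ± 0.12 (adjusted p = 7.74e-05). Of these called genes, Dcn alone overlapped between VsWAT and GAS, through VsWAT LFD 3 at 294 CPM.

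Mgp, at 0.29 ± 0.30, did not differ beyond its error (adjusted p = 0.411). With total counts 8 of 8 members were called, and the median of all genes was 0.54 and that of the members 2.27. In the same tissues all 14 collagens were higher in VsWAT (median 2.35), as were 13 of 18 elastic fibre genes and 11 of 16 fibroblast markers. The other small leucine-rich proteoglycans were split, 2 of 8 higher and 5 of 8 lower in VsWAT, among them Prelp at 3.76, Kera at -5.59 and Fmod at -3.37. Kera encodes keratocan, and Fmod encodes fibromodulin, a proteoglycan of tendon.

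Liver and kidney mRNA inputs divided the members, with 4 higher in liver, 3 lower and Sparc not called, where 60.6% of genes were called. Fn1 differed by far the most, at 948 to 1872 CPM in liver (median 1197, n = 6) against 10.2 to 22.6 CPM in kidney (median 12.0, n = 5), a log2 fold change of 6.93 ± 0.18 (SE, adjusted p = 6.98e-11). Dcn ran from 155 to 319 CPM in liver and from 67.7 to 119 CPM in kidney, at 1.64 ± 0.21 (adjusted p = 3.33e-05), and Lum from 8.30 to 10.2 CPM in liver and from 1.99 to 6.15 CPM in kidney, at 1.78 ± 0.22 (adjusted p = 2.31e-05). Bgn, at 0.59 ± 0.23 (adjusted p = 0.0410), overlapped between the tissues and lost its call in 9 of 18 other settings.

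Mgp was the member most clearly lower in liver than in kidney, with 3.82 to 11.5 CPM in liver against 52.8 to 95.1 CPM in kidney, at -3.49 ± 0.31 (adjusted p = 1.15e-06). Fbln1 held 0.0 to 0.989 CPM in liver against 1.76 to 4.11 CPM in kidney, at -2.31 ± 0.45 (adjusted p = 0.000791), and Pdgfra was at -0.86 ± 0.23 (adjusted p = 0.00717) with overlapping libraries. Sparc, at -0.10 ± 0.20, was not called (adjusted p = 0.680), while with total counts (all-gene median -0.49) it was among 4 members called lower in liver. The highest Mgp and the highest Dcn among the liver inputs, 11.5 and 319 CPM, were both in LFD 1, the library with kidney reads. Kap stood there at 158 CPM, against 54928 to 72789 CPM in the kidney inputs, where Dcn was 67.7 to 119 CPM. The part of kidney reads in these values was not tested. Preparation and tissue cannot be told apart in either tissue comparison.

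**Figure D4:**
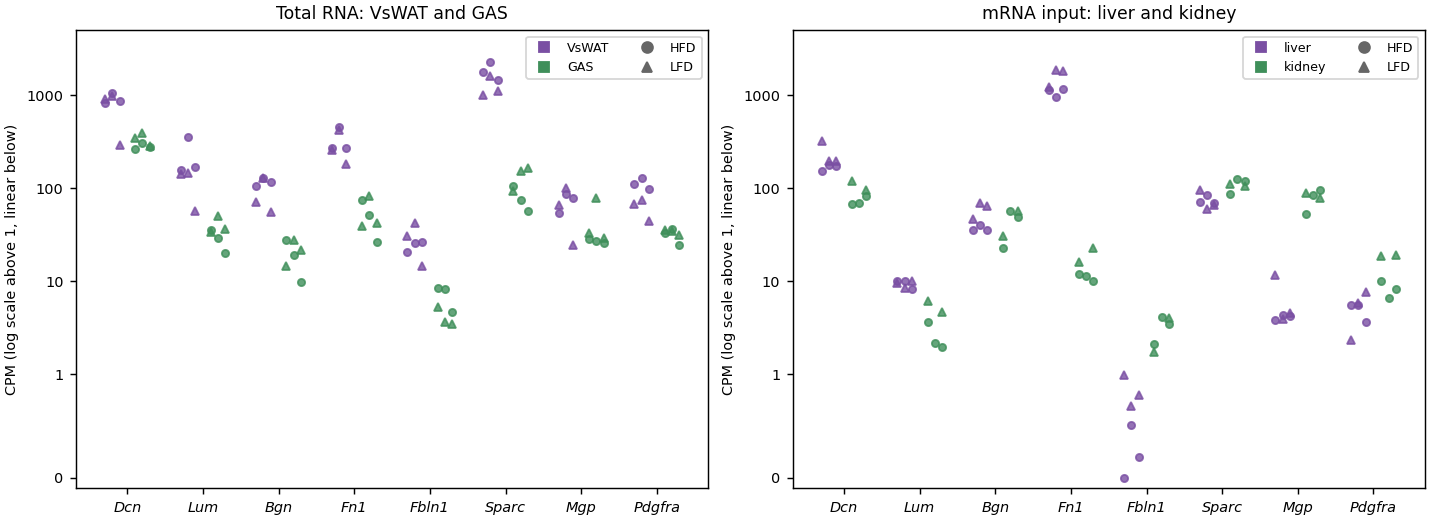
CPM of the 8 genes (vertical axis, logarithmic above 1 CPM and linear below) in each VsWAT and GAS total RNA library (first panel) and each liver and kidney mRNA input library (second panel), circles for HFD and triangles for LFD. Sparc lies at 996 to 2300 CPM in VsWAT and at 56.6 to 164 CPM in GAS, and Fn1 at 948 to 1872 CPM in liver and at 10.2 to 22.6 CPM in kidney.

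Few members were called between diets, and missing the threshold does not show that diet left a gene unchanged. In liver mRNA input 2 of 7 tested members were lower on HFD, where 13.0% of genes were called and 8.09% called lower. Fn1 held 1136, 948 and 1154 CPM on HFD against 1240, 1872 and 1803 CPM on LFD, at -0.55 ± 0.14 (SE, adjusted p = 0.0444). Bgn held 35.2, 40.7 and 36.0 CPM on HFD against 47.1, 69.4 and 64.7 CPM on LFD, at -0.65 ± 0.15 (adjusted p = 0.0343). HFD libraries lay below LFD libraries for both genes, but the calls were weak: Fn1 lost its call in 8 and Bgn in 10 of 14 other settings, among them leaving out HFD 1, HFD 2, HFD 3, LFD 2 or LFD 3, and both lost it when the near-identical libraries were summed. Without LFD 1, the library with kidney reads, Sparc was called higher on HFD (0.40, adjusted p = 0.00512), with a value of 0.05 in all libraries. The LFD libraries then left, LFD 2 and LFD 3, were near-identical, so this adjusted p rests partly on spread close to counting noise. In the same set 2 of 11 collagens were lower on HFD, as were 1 of 10 fibroblast markers and 3 of 20 hepatocyte markers, with 0 higher.

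In liver mRNA pull-down 0 of 4 tested members were called by edgeR where 15.6% of genes were, 1 had an unadjusted p under 0.05 and DESeq2 called 0. Lum, Fbln1, Mgp and Pdgfra were below the filter there. Dcn held 14.5, 19.2 and 22.9 CPM on HFD against 17.9, 35.0 and 29.5 CPM on LFD, at -0.69 ± 0.24 (SE, adjusted p = 0.0518). Replicate numbers paired these libraries, and with the replicate as a block 2 of the 4 were called, Dcn (adjusted p = 0.00547) and Bgn (adjusted p = 0.0285). Without HFD 3 Dcn was called (adjusted p = 0.0382), and without LFD 1 Dcn, Bgn and Sparc were called lower on HFD (adjusted p = 0.000764, 0.0446 and 0.0291).

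The diet difference did not differ between liver mRNA pull-down and input for any member by edgeR (0 of 7 called, 3.36% of genes called, 1 with an unadjusted p under 0.05, 0 by DESeq2). Fn1 came nearest, at 0.44 ± 0.15 (SE, adjusted p = 0.115). Without input LFD 1, the library with kidney reads, 2 were called, Fn1 at 0.46 (adjusted p = 0.00260) and Sparc at -0.86 (adjusted p = 0.0459). The LFD inputs then left, LFD 2 and LFD 3, were near-identical (chi-square over its degrees of freedom 1.13). These adjusted p-values therefore rest partly on spread close to counting noise.

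In VsWAT total RNA 0 of 8 members were called by edgeR where 0.194% of genes were, 2 had an unadjusted p under 0.05 and DESeq2 called 1, Pdgfra. Pdgfra held 111, 128 and 97.6 CPM on HFD against 67.5, 74.3 and 44.0 CPM on LFD, without overlap, at 0.69 ± 0.13 (SE, adjusted p = 0.0817 in edgeR and 0.00948 in DESeq2). Lum held 156, 352 and 167 CPM on HFD against 141, 145 and 57.5 CPM on LFD, also without overlap, at 0.82 ± 0.34 (adjusted p = 0.388). Without the 3 libraries that stand apart, which leaves 1 LFD library assumed to vary like the HFD ones, Pdgfra was called higher (0.64, adjusted p = 0.00198) and Mgp and Fbln1 were called lower on HFD (-0.55 and -0.91, adjusted p = 0.00871 and 3.12e-05), with Mgp at 0.14 in all libraries.

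VsWAT small RNA pull-down had all 8 members above 0 on HFD, with 0 of 8 called by edgeR where 0.103% of genes were, 3 at an unadjusted p under 0.05 and 0 in DESeq2. The median of the members was 0.55 beside 0.01 for all genes. All members were read in the same libraries, so their signs are not independent, and the share of all genes above 0 was not counted. Pdgfra held 65.2, 45.5 and 72.2 CPM in HFD pull-downs against 34.8, 34.0 and 36.4 CPM in LFD pull-downs, at 0.75 ± 0.27 (SE, adjusted p = 0.603). VsWAT small RNA input gave 0 of 8 called (0.213% of genes), 0 at an unadjusted p under 0.05 and 0 in DESeq2, and the diet difference did not differ between its fractions (0 of 8 called by edgeR, 0.0% of genes, 0 at an unadjusted p under 0.05 and 0 in DESeq2).

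Kidney mRNA input had 0 of 8 members called by edgeR, with 0.0% of genes called, 3 at an unadjusted p under 0.05 and 0 in DESeq2. Pdgfra held 10.1, 6.64 and 8.20 CPM on HFD against 18.7 and 19.2 CPM on LFD, at -1.09 ± 0.26 (SE, adjusted p = 0.351), Lum was at -0.97 ± 0.38 and Fn1 at -0.68 ± 0.23. Without HFD 1 alone Pdgfra was called (-1.26, adjusted p = 0.0292). Without HFD 1 and LFD 1, the libraries with more mitochondrial mRNA, 5 members were called with 1 LFD library left and assumed to vary like the HFD ones: Pdgfra, Lum and Fn1 lower on HFD (-1.17, -1.01 and -0.89) and Sparc and Mgp higher (0.38 and 0.39). In kidney pull-down 0 of 8 were called (0.0% of genes; 1 at an unadjusted p under 0.05 and 0 in DESeq2), with Dcn at -1.79 ± 0.43 and an unadjusted p of 0.000700. Without kidney pull-down LFD 2, which leaves LFD 1 alone, assumed to vary like the HFD libraries, Dcn, Sparc and Mgp were called lower on HFD (-2.44, -0.85 and -1.08). LFD 1 held Dcn at 40.1 CPM, and Kap at 25187 CPM against 10666 to 13389 CPM in the other 4 kidney pull-downs. The diet difference between kidney fractions gave 0 of 8 called by edgeR (0.0% of genes, 1 at an unadjusted p under 0.05, 0 in DESeq2), with Dcn at -1.36 ± 0.59.

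GAS total RNA gave 0 of 8 members called by edgeR on HFD against LFD, where 0.91% of genes were, with 1 at an unadjusted p under 0.05 and 0 in DESeq2. That gene was Fbln1, with 8.38, 8.21 and 4.66 CPM on HFD against 5.31, 3.62 and 3.50 CPM on LFD, at 1.18 ± 0.33 (SE, adjusted p = 0.121). GAS adipocyte markers were lower on HFD in 7 of 12 in the same libraries. GAS small RNA input (0.276% of genes called) and pull-down (0.718%) gave 0 of 8 each by edgeR, 1 each at an unadjusted p under 0.05 and 0 each in DESeq2, with Fbln1 at 0.64 ± 0.27 in input and Lum at -0.96 ± 0.42 in pull-down. The difference between the GAS fractions gave 0 of 8 called by edgeR (0.0% of genes, 1 at an unadjusted p under 0.05, 0 in DESeq2).

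Liver small RNA and plasma gave no diet call among the members either, by edgeR or DESeq2, and 0 at an unadjusted p under 0.05. The counts were 0 of 5 in liver small RNA input (0.111% of genes called), 0 of 5 in its pull-down (0.0545%), 0 of 6 in plasma input (0.0%) and 0 of 5 in plasma pull-down (0.0%). The diet by pull-down difference was called for 0 of 6 in liver small RNA (0.0% of genes) and 0 of 6 in plasma (0.0%). With 2 libraries a group in plasma, a difference would have to be large to be detectable.

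**Figure D5:**
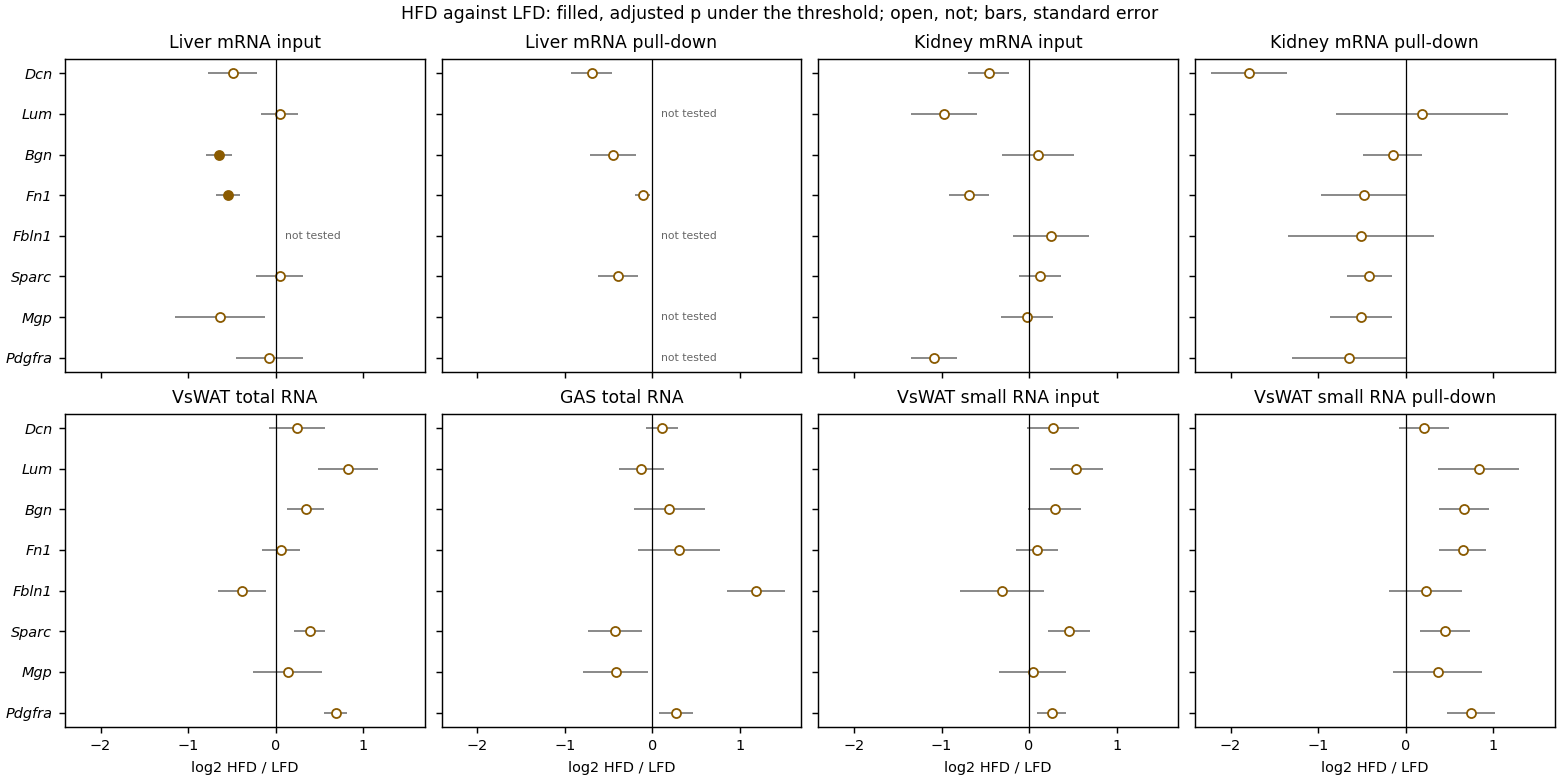
Log2 fold change of HFD over LFD from edgeR for each of the 8 genes (rows) in 8 of the 14 sets of libraries (panels), with standard errors as bars; filled points passed an adjusted p of 0.05 and open points did not. The only filled points are Fn1 at -0.55 and Bgn at -0.65 in liver mRNA input. In VsWAT small RNA pull-down all 8 points lie above 0, and none of them is filled.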

How the data were processed

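The deposited files hold raw counts of reads per gene for each of 77 libraries, which the authors made with STAR and HTSeq on mm10, per the submitters' processing notes; versions and the strand setting are not given in the sources used here. Per the labels, RNA came from spin-filtered plasma (Tri reagent BD) or tissue (NucleoZOL), and libraries from a CATS small RNA kit read single-end at 75 bp. A count table from such short-read libraries holds fragments of mRNA, also in the small RNA sets. IDs were matched to symbols through a gene name table (55450 of 55746 Ensembl IDs).

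All genes were tested with edgeR 4.0.16 in R 4.3.3 (quasi-likelihood test with robust fitting; TMM scaling; genes kept by filterByExpr at 10 counts), 2-sided, with Benjamini-Hochberg adjustment over all genes and calls at an adjusted p under 0.05. SE was derived as the size of the log2 fold change divided by the root of F. CPM used all assigned counts. The Fn1 to Dcn ratio used counts with 0.5 added and exact permutation (numpy 2.4.6). The 30 comparisons were pull-down against input, HFD against LFD, their interaction, and tissues. Other settings tried were total counts, DESeq2 1.42.0, size factors of the DESeq2 type, no filter, summed near-identical libraries, runs without libraries that stand apart or any single library, dispersion from all 4 groups, and the replicate number as a block. Crossed plasma numbers were added after seeing the data.

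Named genes were all members, up to 3 genes of a list with the smallest p in a comparison, and the 3 genes most like each member; Ccn1, Pdgfrb, Pdgfc, Lama4, Lama5 and Vkorc1 were named after their values were seen. Members and lists were chosen with earlier results of these data known. Pairing by replicate number was accepted where each of 3 or more same-numbered pairs had a correlation of deviations above 0.1. That held for liver mRNA pull-down between diets (0.153 to 0.162) and GAS small RNA between fractions (0.223 to 0.426). The tests were tested on simulated data.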

Additional observations from a re-analysis of the deposited data

How the results depend on the processing

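Counts of members called stayed within 1.5 times their main value in most other settings, and the exceptions follow; the cause was not tested. With no filter on low counts the calls came to 1 in the kidney diet by pull-down difference, in GAS total RNA, kidney input, kidney pull-down, liver mRNA pull-down and VsWAT total RNA between diets and in liver mRNA input (main 2), and to 3 in the VsWAT minus GAS difference. Total counts left 2 of 6 in liver small RNA pull-down against input and 0 of 2 between diets in liver mRNA input. In the last, the replicate block and the summed near-identical libraries left 0 and the dispersion from all 4 groups 1, while in liver mRNA pull-down DESeq2-type size factors gave 1 and the replicate block 2. DESeq2 gave 1 in plasma pull-down against input and 1 in VsWAT total RNA. Without the libraries that stand apart the calls were 2 in the liver mRNA diet by pull-down difference, 5 in kidney input, 3 in VsWAT total RNA and 1 in the liver minus kidney difference. The block gave 3 in the VsWAT minus GAS difference (Fn1, Sparc and Fbln1), and called Mgp in VsWAT pull-down against input (-1.03, adjusted p = 6.06e-05), for 8 of 8 there, although the numbers did not pair all those libraries. In plasma input, crossed numbers called 0 genes, as did the block as numbered and no block.

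Leaving out single libraries gave 5 to 8 calls in kidney pull-down against input, 0 to 2 in plasma, 0 to 2 in the liver mRNA diet by pull-down difference, 0 to 1 in kidney input, 0 to 3 in kidney pull-down, 0 to 3 in liver mRNA input, 0 to 3 in liver mRNA pull-down, and 0 to 1 in each of the liver minus kidney and VsWAT minus GAS differences. The log2 Fn1 to Dcn ratio difference kept its sign in every set, and was -0.89 to -0.63 in GAS without single libraries. Within replicate pairs it was 1.71 in kidney mRNA and 1.39 in liver small RNA, each with an exact adjusted p of 0.09375 over 5 pairs. In both sets all 5 pairs were higher in pull-down, so the unadjusted p was the smallest that 5 pairs allow. That smallest p is above the threshold for calls, so the paired test could not pass and decides nothing. Signs of called values turned for Mgp (0.10) in GAS and Fn1 (0.36) in liver small RNA pull-down with total counts. Mgp between diets turned without the libraries that stand apart, to 0.39 in kidney input and to -0.55 in VsWAT total RNA. Depth limits plasma most, where members rest on 0 to 855 counts over 4 libraries.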
